A study of Mus musculus with 60 samples.

Results

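The interferon-stimulated antiviral genes described here are 36 mouse genes that cells switch on in response to interferon, chosen by name: 4 sensors of foreign nucleic acid, transcription factors of the interferon pathway, effectors that act on RNA, large GTPases, proteins of the ISG15 and ADP-ribosylation systems, and membrane or other effectors. Of the 36 genes, 34 had a probe set (a group of array oligonucleotides) that the array annotation gives to 1 gene, out of 18194 such genes, and 33 were bright enough to test, out of 12650 genes tested. Isg15, which encodes the ubiquitin-like tag of the pathway, lay on a probe set that the annotation gives to several genes, and Ifi44 was matched to no probe set in the table used here, so both are named without values. Ifih1, a sensor of long double-stranded RNA, had a mean intensity of 5.63 over the 60 arrays, was above its array's median on 0 of them, and was not tested. The probe sets used for Ifi35 and Trim25 carry the suffix that Affymetrix gives to sets matching more than 1 transcript, so their signal may include a related transcript.

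The cells were Balb/c 3T3, an established fibroblast line from BALB/c mouse embryos used in cell transformation assays, and all arrays come from this 1 line. They were treated before the dishes were full with 1 of 4 carcinogens, spelled in the labels as 2-Acetylaminoflourene (AAF), benzo(a)pyrene (BaP), 2, 4-diaminotoluene (DAT) and 3-methycholanthrene (MCA), or with the vehicle DMSO at 0.75%. Set 1 used doses from the literature for both 24 h and 120 h, with AAF at 25 µM, BaP at 0.5 µM, DAT at 50 µM, and MCA at 2 µM. Set 2 used doses fitted to each duration by toxicity (IC20), so that 24 h cultures received AAF at 10 µM, BaP at 1.5 µM, MCA at 20 µM or DAT at 700 µM. The 120 h cultures of set 2 received BaP or MCA at 0.1 µM, DAT at 0.2 µM, or again AAF at 10 µM. Each set had its own DMSO cultures at 24 h and 120 h, which gives 20 groups of 3 arrays, 30 arrays a set. The labels do not say that the 3 arrays of a group came from separate cultures and the p-values then measure array-to-array spread alone, part or all of which may be technical.

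Interferons bind receptors whose kinases phosphorylate STAT proteins. Stat2 and Irf9 take part in a complex that binds the interferon-stimulated response element in promoters, and interferon gamma acts through another element, the gamma-activated site. Many of the induced genes encode proteins that detect viral RNA or stop its translation and packaging, and Irf7, Irf9, Stat2 and the sensors feed back on the pathway itself. Fibroblasts make interferon beta and carry both kinds of interferon receptor. The Mx1 gene of most laboratory mouse strains, BALB/c among them, makes no working protein, so its signal here is that of the RNA only.

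The promoters of the genes are shown first because a shared element is what the genes are known for and the rule that chose them did not use it. RefSeq promoter windows of build GRCm38.p6, from 250 bases before to 50 bases after the start, were held for 25 of the 36 genes. The response element core GAAANNGAAA, with N for any base and read on both strands, occurred in windows of 14 of these 25 genes (56.0%). Counted by window it occurred in 14 of their 29 windows and in 3.44% of all 32851 windows. The gamma-activated core TTCNNNGAA, which reads the same on both strands, occurred for 7 of the 25 genes (28.0%). By window it occurred in 7 of the 29 and in 8.3% of all windows. A match describes the letters in a window and does not show that a factor binds there. The windows of Irf7 and Oasl2 held neither core. The stretches below are in lower case with the matched cores in capitals and are read along the strand of the gene. They are from Ifit1, Ifit3 and Rsad2, which moved most in several comparisons, from Igtp, which holds both cores, and from Gbp2 and Irf1. Gbp2 and Irf1 rose after 1.5 µM BaP and after 20 µM MCA for 24 h in set 2, where most of the called genes fell.
Ifit1, chr19:34640765-34640833, plus strand: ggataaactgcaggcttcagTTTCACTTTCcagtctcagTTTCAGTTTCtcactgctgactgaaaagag
Ifit3, chr19:34583353-34583436, plus strand: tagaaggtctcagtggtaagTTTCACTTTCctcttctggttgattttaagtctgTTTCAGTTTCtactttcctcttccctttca
Rsad2, chr12:26456543-26456592, minus strand: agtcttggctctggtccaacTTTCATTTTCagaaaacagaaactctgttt
Igtp, chr11:58199491-58199551, plus strand: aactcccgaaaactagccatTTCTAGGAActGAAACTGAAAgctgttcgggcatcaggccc
Gbp2, chr3:142620584-142620633, plus strand: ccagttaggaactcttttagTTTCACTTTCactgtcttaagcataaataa
Irf1, chr11:53769904-53769952, plus strand: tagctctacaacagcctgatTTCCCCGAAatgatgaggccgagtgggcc
Ifit1 held 2 response element cores, which began 104 and 85 bases before the start, and Ifit3 held 2, at 156 and 122 bases. Rsad2 held 1 at 120 bases and Gbp2 held 1 at 59 bases. In Igtp the gamma-activated core at 45 bases lay just before the response element core at 34 bases. The Irf1 window held the gamma-activated core, at 90 bases, and no response element core of these letters. Parp14, Dtx3l and Parp9 follow one another among the protein-coding genes of the same RefSeq table, as do Ifit2 and Ifit3, and Oasl2 and Oasl1.

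Values are log2(intensity + 16) after quantile normalization within a set, and a gene was called where the adjusted p of limma's test, over all 12650 genes, was under 0.05. Facts of the whole series that bear on these values are few. The 2 sets were scaled separately by the authors, with array medians of 41.2 to 47.1 in set 1 and 56.3 to 98.9 in set 2, so levels are compared only within a set. The median spread between arrays of a group was 0.11 in set 1 and 0.22 in set 2, and the wider spread of set 2 makes a difference of a given size harder to call there. Cyp1a1, the usual target of the aryl hydrocarbon receptor, rose in 15 of the 16 treatment groups against their DMSO, by 0.71 to 7.35, and did not pass the test after 0.2 µM DAT for 120 h (0.0088). Of the fibroblast markers Col1a1, Col1a2, Col3a1, Vim, Pdgfra, Pdgfrb, Thy1, Fn1 and S100a4, all 9 were tested, with mean intensities of 219.8 to 8740 in set 1. Of markers of other cells, 7 of 10 for macrophages and dendritic cells (Cd68, Adgre1, Csf1r, Lyz2, Cd14, Cd74, H2-Aa), 2 of 4 for T and NK cells (Cd3e, Cd8a), 2 of 4 for epithelium (Epcam, Krt8) and 0 of 4 for endothelium were bright enough to test, with set means of 12.5 to 468.4. The others (Ptprc, Itgam, Itgax, Cd3g, Nkg7, Krt18, Cdh1, Pecam1, Cdh5, Kdr, Tek) were too dim, with set means of 51.7 or less.

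The first comparison asks how the genes changed with time in culture under DMSO alone. In set 1 they were lower or little different at 120 h. Of the 33 genes 17 fell and 2 rose, with a median difference of -0.23, while over all genes tested 28.5% fell and 29.3% rose, with a median of 0.0023. In set 2 27 of the 33 rose and 1 fell, with a median of 0.86, while 17.8% of all genes rose and 22.4% fell, with a median of -0.052. In both sets the share of the genes called in the more frequent direction was above that of all genes. The opposite direction in the 2 sets was known from these data before the genes were described here. In bulk RNA, fewer responding cells and less RNA per cell cannot be told apart.

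Among the factors, Irf7, which drives the later wave of interferon genes, measured 9.00, 8.83 and 8.61 on the 24 h arrays of set 1 and 8.54, 8.68 and 8.80 at 120 h. In set 2 it measured 9.02, 8.82 and 8.99 at 24 h and 10.16, 10.05 and 10.12 at 120 h. The set 1 groups overlapped and the difference did not pass the test (-0.14, adjusted p = 0.225), whereas every 120 h array of set 2 lay above every 24 h array, a rise of 1.17 (SE 0.17, adjusted p = 3.59e-06). Stat2 and Irf9, both of them parts of the response element complex, rose in set 2 by 1.19 (SE 0.27, adjusted p = 0.000884) and 0.51 (SE 0.12, adjusted p = 0.00138), and neither passed the test in set 1 (-0.06 and -0.13). Irf1, a factor that interferon gamma induces through the gamma-activated site, measured 10.07, 9.99 and 9.83 at 24 h and 9.89, 10.00 and 10.00 at 120 h in set 1. The set 2 arrays read 11.30, 11.18 and 11.06 and 11.58, 11.50 and 11.46. Its set 1 values overlapped, and its set 2 rise was small, 0.33 (SE 0.13, adjusted p = 0.0455).

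Of the effectors that act on RNA, Ifit1 binds RNA that lacks the cap marks of the host. It measured 11.29, 11.41 and 11.37 at 24 h in set 1 and 10.58, 10.93 and 10.98 at 120 h, with no overlap, a fall of -0.52 (SE 0.11, adjusted p = 0.000146). In set 2 it measured 11.10, 10.75 and 10.67 at 24 h and 11.83, 11.97 and 11.52 at 120 h, again with no overlap but in the other direction, a rise of 0.93 (SE 0.16, adjusted p = 4.54e-05). Ifit3, its partner, measured 11.09, 11.12 and 10.96 and then 10.96, 11.13 and 11.22 in set 1, where the groups overlapped. In set 2 it went from 10.74, 10.87 and 10.92 to 12.34, 12.56 and 12.32, a rise of 1.56 (SE 0.15, adjusted p = 4.64e-09) or 2.95-fold, the largest rise of any of the 33 genes there. Oasl2, related to the oligoadenylate synthetases that activate RNase L, measured 11.14, 11.17 and 11.04 and 10.83, 11.04 and 11.11 in set 1. The set 2 arrays read 11.20, 11.18 and 11.03 at 24 h and 12.26, 12.63 and 12.39 at 120 h, a rise of 1.29 (SE 0.1, adjusted p = 1.11e-10), while its set 1 groups overlapped. Oas1a, a synthetase of that family, fell in set 1 by 0.97 and rose in set 2 by 0.53. Oasl1 alone of the 33 fell in set 2, by 0.52 (adjusted p = 0.0294), and it fell in set 1 too, by 0.66.

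Among the GTPases, all 7 rose in set 2, with a median of 1.13, against 17.8% of all genes. In set 1 2 of the 7 fell and 1 rose, which is near or below the shares of all genes (28.5% and 29.3%). Gbp2, which attacks the vacuoles of intracellular pathogens, measured 10.77, 10.70 and 10.46 and 10.55, 10.69 and 10.74 in set 1. In set 2 it measured 11.53, 11.62 and 11.55 and 12.36, 12.46 and 12.46, a rise of 0.86 (SE 0.068, adjusted p = 1.69e-10), with overlap in set 1 and none in set 2. Iigp1, an immunity-related GTPase, rose in both sets, by 0.20 (adjusted p = 0.0233) in set 1 and by 1.34 in set 2. All 5 tested genes of the ISG15 and ADP-ribosylation systems rose in set 2. The one with the largest rise was Usp18, which strips Isg15 from proteins and damps the interferon receptor, at 1.30 (SE 0.091, adjusted p = 2.35e-11). In set 1, 3 of these 5 fell (Parp14, Parp9 and Dtx3l, neighbours on the chromosome) and Usp18 stood at 0.10 without passing the test.

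Rsad2, whose product viperin makes a chain-terminating nucleotide, measured 9.97, 9.60 and 9.50 at 24 h and 8.34, 8.54 and 8.70 at 120 h in set 1. The set 2 arrays read 9.07, 8.89 and 9.06 at 24 h and 10.26, 10.17 and 9.98 at 120 h. The groups did not overlap in either set, and the direction was opposite: a fall of -1.16 (SE 0.14, adjusted p = 3.25e-08) or 2.24-fold in set 1, the largest of the 33 there, and a rise of 1.13 (SE 0.14, adjusted p = 4.53e-07) in set 2. Zbp1, a sensor of left-handed nucleic acid, fell by 1.10 in set 1 (adjusted p = 2.64e-08) and stood at 0.74 in set 2 without passing the test (adjusted p = 0.0911). Bst2, or tetherin, which holds budding virus at the cell surface, rose by 1.43 (SE 0.21, adjusted p = 6.47e-06) in set 2 and did not pass the test in set 1 (-0.09). Ifi27, a mitochondrial protein, was with Iigp1 one of the 2 genes that rose in set 1, from 9.15, 9.14 and 9.58 to 10.29, 10.23 and 10.10, a rise of 0.92 (SE 0.081, adjusted p = 1.65e-10), and in set 2 its groups overlapped (0.09).

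**Figure D1:**
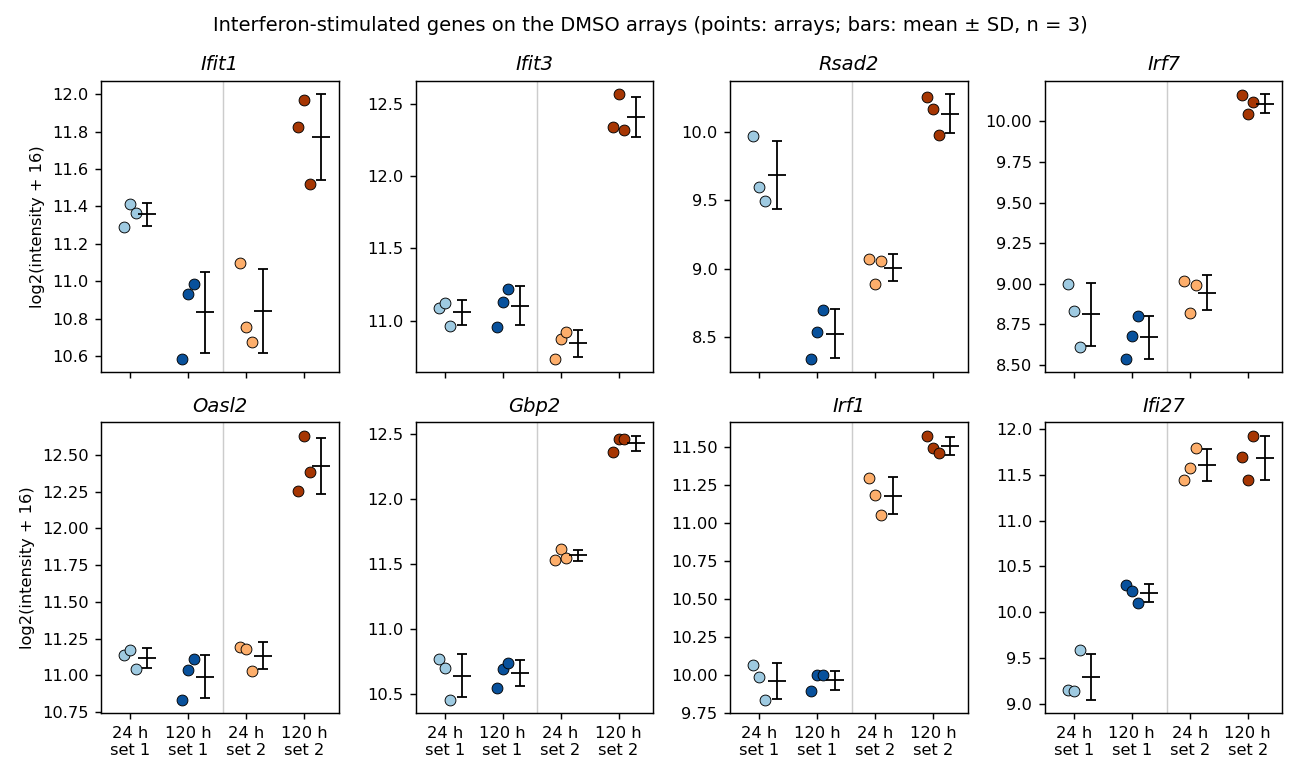
Level of 8 genes, as log2(intensity + 16), on the 12 DMSO arrays, with points for arrays and bars for the mean ± SD of 3 arrays; each panel has its own vertical scale. The 120 h arrays of set 2 lie above its 24 h arrays for the first 7 genes, while in set 1 Ifit1 and Rsad2 lie lower at 120 h and Ifi27 lies higher.

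The difference between the sets was itself tested, as the set 2 time change minus the set 1 time change in a fit of all 60 arrays that weights each set by its spread. It was positive and called for 29 of the 33 genes and negative and called for 1, Ifi27, against 1.61% and 1.94% of all genes. The median was 1.20 for the 33 and -0.041 for all genes. The opposite time change was known from these same arrays beforehand, so these counts describe it and are not independent support. The largest differences were those of Rsad2 at 2.29 (SE 0.24, adjusted p = 4.37e-09), Zbp1 at 1.84 (SE 0.35, adjusted p = 0.000428) and Bst2 at 1.52 (SE 0.22, adjusted p = 6.21e-06), and that of Ifi27 was -0.83 (SE 0.16, adjusted p = 0.000549). Ifit1 differed by 1.46, Ifit3 by 1.52, Irf7 by 1.31, Oasl2 by 1.41 and Gbp2 by 0.84. The 3 genes with no call were Irf1, Mx2 and Oasl1. By role, the difference was called positive for 3 of 3 sensors, 3 of 4 factors, 7 of 8 effectors that act on RNA, 6 of 7 GTPases, 5 of 5 genes of the ISG15 and ADP-ribosylation systems and 5 of 6 of the remaining effectors.

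**Figure D2:**
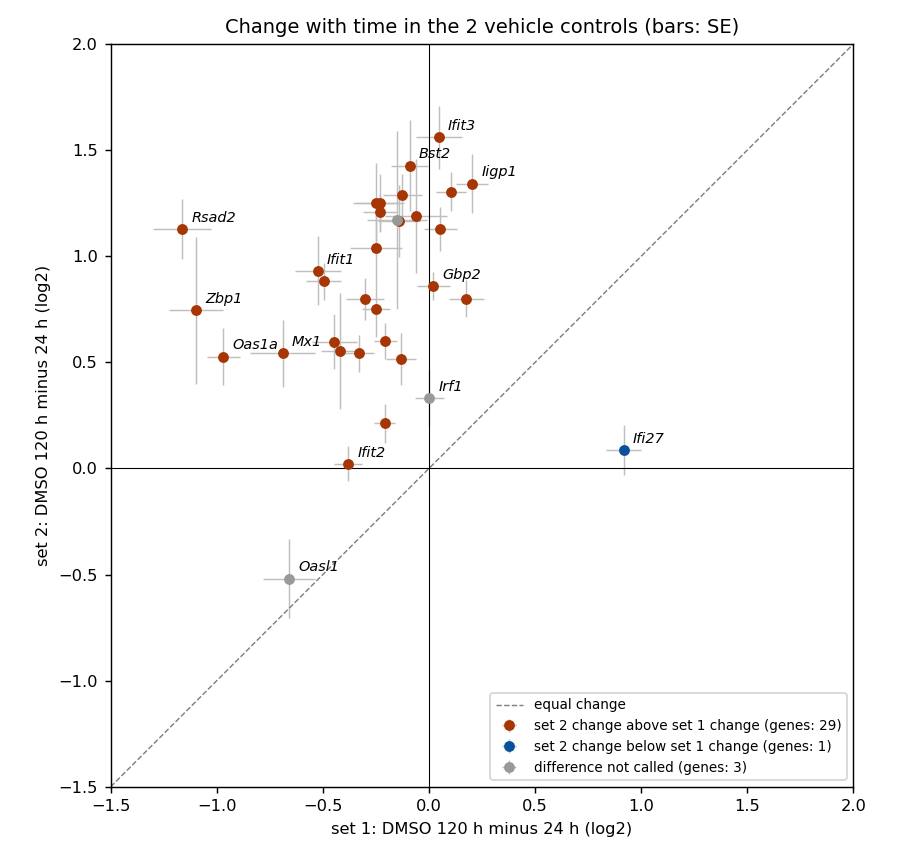
Change from 24 h to 120 h under DMSO, log2, in set 1 (horizontal) against set 2 (vertical), 1 point per gene with SE bars and a dashed line of equal change. Of the 33 genes 29 lie above the line with a called difference, 1 lies below it with one, Ifi27, and 3 have no call.

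What moved beside the genes is given here without a cause. The log2 ratio of the 3' to the 5' actin control probe sets, a measure of RNA degradation and labelling, was 0.29 ± 0.041 at 24 h and 0.31 ± 0.023 at 120 h in the DMSO groups of set 1 (SD, n = 3), and 0.29 ± 0.069 and 0.54 ± 0.12 in those of set 2. For Gapdh the ratio was -0.28 ± 0.0275 at 24 h and -0.18 ± 0.024 at 120 h in set 1 DMSO. In set 2 DMSO it was -0.32 ± 0.037 and -0.46 ± 0.080, so it fell where the actin ratio rose. The part of either ratio in the set 2 rise was not tested. In 14 of the 16 treatment groups the actin ratio overlapped that of the DMSO arrays of the same set and time, and in 2 it lay above. In set 2 at 24 h it averaged 0.37 after AAF, 0.40 after BaP, 0.38 after DAT and 0.42 after MCA, against 0.29 in DMSO. The part of these shifts in the treatment changes was not tested. The summed intensity of the 10 macrophage and dendritic cell markers ran from 651.4 to 796.4 at 24 h and from 730.5 to 833.6 at 120 h in the set 1 DMSO arrays, and from 1101.5 to 1273.1 and 1241.0 to 1486.5 in those of set 2. Of the 7 tested, Lyz2 rose (0.63) and Cd74 fell (-0.29) in set 1, and 0 rose and 1, Csf1r, fell (-0.56) in set 2. The epithelial marker Epcam rose in both sets (0.62 and 1.17), Krt8, Cd3e and Cd8a were not called in either, and Ptprc, which all white blood cells carry, had a mean intensity of 5.6 in set 2. The 17 tested genes of mitosis all fell with time in both sets, with medians of -2.24 in set 1 and -1.80 in set 2. Of all genes tested 28.5% fell in set 1 and 22.4% in set 2. The set difference, with a median of 0.42, was called positive for 5 of the 17 and negative for 0. For all genes these shares were 1.61% and 1.94%. The list of mitosis genes includes Bub1 and Aurkb, at -2.71 and -2.49 in set 1 and -1.94 and -2.20 in set 2. Of the 9 fibroblast markers 7 rose and 2 fell with time in set 1, against 29.3% and 28.5% of all genes. In set 2 6 rose and 2 fell, against 17.8% and 22.4% of all genes. Time and culture density cannot be told apart in this design.

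The second question is how each carcinogen moved the genes against DMSO of the same set and time. The treatments of a set and time share 3 DMSO arrays, which also enter the time change above, so counts of different treatments are not independent of each other. At 24 h in set 1, 0.5 µM BaP lowered nearly all of the genes: 31 of 33 fell and 1 rose, with a median of -0.74 and a largest adjusted p of 0.0313 among those called. Over all genes 4.88% fell and 4.51% rose. The fall was largest for Mx2, a GTPase of the Mx family, at -1.53 (SE 0.14, adjusted p = 1.19e-08) or 2.89-fold, and then for Ifit3 at -1.43 (SE 0.11, adjusted p = 4.11e-10) and Rsad2 at -1.40 (SE 0.14, adjusted p = 3.67e-08). Ifit1 measured 9.94, 10.05 and 9.97 on the BaP arrays, Ifit3 9.74, 9.55 and 9.60, and Rsad2 8.32, 8.30 and 8.23, each array below every DMSO array at 24 h. All 7 GTPases, all 8 effectors that act on RNA, all 3 sensors and all 5 genes of the ISG15 and ADP-ribosylation systems fell. Irf1 did not pass the test (0.11, adjusted p = 0.365), and Ifi27 rose by 0.49 (SE 0.081, adjusted p = 0.00013). Of the markers of other cells only Cd14 was called, a rise (0.62).

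MCA at 2 µM, the other polycyclic aromatic hydrocarbon, gave at 24 h 23 falls and 2 rises, with a median of -0.41, against 1.12% and 1.08% of all genes. Rsad2 fell by 0.90 (SE 0.14, adjusted p = 0.000147), Ifit3 by 0.89, Mx2 by 0.84 and Ifit1 by 0.81. The 2 that rose were Ifi27 (0.48) and Irf1 (0.25). One MCA array stood apart, with a mean over the 33 genes of 9.60 beside 9.29 and 9.27 for the other two, and without it 27 genes were called in place of 25. For Ifit1 the MCA arrays read 10.38, 10.44 and 10.83, and the third of these is the array that stood apart. Few genes were called after the aromatic amines at 24 h. After 25 µM AAF 1 gene fell, Rsad2 (-0.61 (SE 0.14, adjusted p = 0.0236)), and 1 rose, Ifi27 (0.33 (SE 0.081, adjusted p = 0.0444)), against 0.3% and 0.609% of all genes. With the replicate number as a block 4 were called, and without any 1 of the 3 AAF arrays, or without DMSO array 1 or 2, the count was 0. After 50 µM DAT 0 rose and 0 fell by limma's adjusted p, against 0.0949% and 0.0791% of all genes, with a median of -0.07, 7 genes at an unadjusted p under 0.05, and 1 call without the third DMSO array.

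At 120 h in set 1 the order was different. DAT at 50 µM raised the genes: 30 of 33 rose and 1 fell, with a median of 0.44, while 11.7% of all genes rose and 12.0% fell. Rsad2 rose by 1.04 (SE 0.14, adjusted p = 1.84e-06), Zbp1 by 1.04 (SE 0.13, adjusted p = 5.73e-07) and Irf7 by 0.86 (SE 0.097, adjusted p = 1.73e-07). Rsad2 measured 9.60, 9.50 and 9.59 on the DAT arrays and Ifit3 11.82, 11.77 and 11.75, all above the DMSO arrays of that time. The gene that fell was Ifi27 (-0.58 (SE 0.081, adjusted p = 5.23e-06)), and Stat2 and Oasl1 did not pass the test. The mitosis genes rose as well after this treatment, 17 of 17 with a median of 0.94, and so did the macrophage marker Cd14 (0.57), 1 of the 7 tested of its list. The 17 mitosis genes and Cd14 also rose after BaP at 120 h (median 0.90 and 0.68) and after MCA at 120 h (median 1.32 and 0.70). Of the 7 markers tested in Cd14's list, 2 were called higher and 0 lower after BaP, and 1 higher and 2 lower after MCA. Of the 9 fibroblast markers 1 was called higher and 3 lower after DAT at 120 h, 1 and 4 after BaP, and 1 and 7 after MCA. Of all genes 13.8% rose and 12.9% fell after BaP at 120 h, and 18.8% and 20.2% after MCA. The part of the mitosis genes, of Cd14 or of the fibroblast markers in the changes of the interferon-stimulated genes was not tested.

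After 120 h of 0.5 µM BaP 6 genes rose and 9 fell, with a median of -0.05, against 13.8% and 12.9% of all genes, so the share that rose was near that of all genes. The log2 actin 3' to 5' ratio was 0.391 to 0.507 on these BaP arrays, above the 0.284 to 0.328 of the DMSO arrays, and its part was not tested. The rises were led by Zbp1 (0.94 (SE 0.13, adjusted p = 2.07e-06)), Rsad2 (0.75 (SE 0.14, adjusted p = 0.000118)) and Irf1 (0.70 (SE 0.066, adjusted p = 4.38e-09)), and the falls by Igtp (-0.61 (SE 0.08, adjusted p = 1.04e-06)), Mx2 (-0.56 (SE 0.14, adjusted p = 0.00329)) and Usp18 (-0.47 (SE 0.071, adjusted p = 8.41e-06)). Of the 7 GTPases 4 fell and 1, Gbp2, rose (0.42). After 120 h of 2 µM MCA 11 fell and 1 rose, with a median of -0.12, against 20.2% and 18.8% of all genes. Iigp1 fell by 0.51 (adjusted p = 4.86e-06), and 6 of the 7 GTPases were among the 11. AAF at 25 µM for 120 h gave 0 rises and 0 falls by limma's adjusted p, against 0.324% and 0.0316% of all genes, with an actin ratio of 0.337 to 0.395 that again lay above DMSO, although 14 genes had an unadjusted p under 0.05 and 31 of 33 estimates were negative (median -0.16); the count was 0 under every alternative setting as well.

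Whether the response changed between 24 h and 120 h was tested in set 1, where the doses were equal. For 0.5 µM BaP the 120 h response was above the 24 h response for 28 of 33 genes and below it for 1, Ifi27, with a median of 0.68, against 4.99% and 3.49% of all genes. The difference was 2.15 (SE 0.19, adjusted p = 3.82e-08) for Rsad2, 1.71 (SE 0.18, adjusted p = 2.91e-07) for Zbp1 and 1.56 (SE 0.15, adjusted p = 1.39e-07) for Ifit3. For 50 µM DAT it was above for 26 and below for 1, again Ifi27 (-0.79), with a median of 0.53, against 4.9% and 3.3% of all genes, with Rsad2 at 1.32 (SE 0.19, adjusted p = 4.43e-05). For 2 µM MCA it was above for 16 and below for 0, with a median of 0.35, against 14.8% and 13.3% of all genes. For 25 µM AAF 0 were above and 0 below, against 0.0395% and 0.0158% of all genes, with 2 genes at an unadjusted p under 0.05. These 4 tests share the 6 DMSO arrays of set 1, in which 17 of the 33 genes fell with time and 2 rose.

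**Figure D3:**
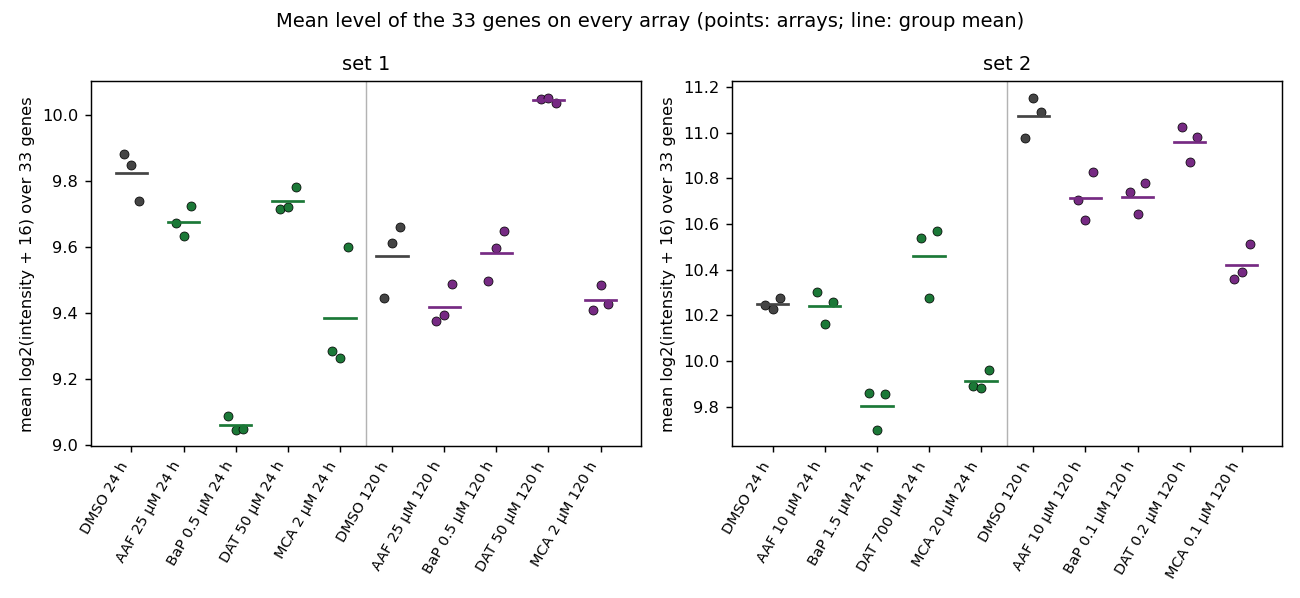
Mean log2(intensity + 16) over the 33 tested genes on each of the 60 arrays, with points for arrays and lines for group means, set 1 on the left and set 2 on the right with separate scales. The 3 arrays of 0.5 µM BaP at 24 h are the lowest of set 1 (9.05 to 9.09) and those of 50 µM DAT at 120 h the highest (10.04 to 10.05).

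In set 2 BaP at 1.5 µM for 24 h also lowered the genes: 14 fell and 2 rose, with a median of -0.43, against 1.19% and 1.17% of all genes. Mx2 fell by 1.93 (SE 0.42, adjusted p = 0.0106), Ifit1 by 1.16 (SE 0.16, adjusted p = 7.53e-05) and Rtp4, a chaperone of membrane receptors, by 0.95. Ifit1 measured 9.86, 9.55 and 9.63 under BaP, each array below the DMSO arrays of that time. The 2 genes that rose were Irf1 (0.53 (SE 0.13, adjusted p = 0.0278)) and Gbp2 (0.38 (SE 0.068, adjusted p = 0.00138)). The count was 21 with the replicate block, 7 without the second BaP array and 9 without the second DMSO array. MCA at 20 µM for 24 h gave 7 falls and 2 rises, with a median of -0.34, against 0.672% and 0.625% of all genes. Ifit1 fell by 0.95 (adjusted p = 0.00166), Rtp4 by 0.75 and Usp18 by 0.65, and Irf1 (0.61) and Gbp2 (0.35) rose again. With the replicate block 17 genes were called, and without the first MCA array or the second DMSO array 5.

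DAT at 700 µM for 24 h went the other way, with 8 rises and 0 falls, a median of 0.22, against 4.17% and 3.65% of all genes. Rsad2 rose by 1.28 (SE 0.14, adjusted p = 1.12e-06), Gbp2 by 0.71 (SE 0.068, adjusted p = 1.02e-07) and Oas2, an oligoadenylate synthetase, by 0.62 (SE 0.14, adjusted p = 0.00435). Irf1 rose by 0.58, as did Cd14 (0.58), and Ifit1 (-0.31) and Ifit3 (0.13) did not pass the test. The count was 17 with the replicate block and 5 without the third DMSO array. AAF at 10 µM for 24 h gave 0 rises and 0 falls, against 0.0237% and 0.0% of all genes, with 1 gene at an unadjusted p under 0.05 by limma and 0 calls under every alternative setting.

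At 120 h in set 2 the DMSO group had the highest group mean of the set for 23 of the 33 genes. MCA at 0.1 µM for 120 h gave 22 falls and 1 rise, with a median of -0.58, against 1.16% and 1.31% of all genes. Rsad2 measured 8.41, 8.05 and 8.24, each array below the DMSO arrays of that time, a fall of -1.90 (SE 0.14, adjusted p = 1.75e-09) or 3.74-fold. Mx2 fell by 1.71 (SE 0.42, adjusted p = 0.0209) and Ifit1, at 10.35, 10.44 and 10.35, by 1.39 (SE 0.16, adjusted p = 2.92e-06). Irf1 was the gene that rose (0.51 (SE 0.13, adjusted p = 0.0302)). By role, 6 of 7 GTPases, 6 of 8 effectors that act on RNA, 4 of 5 genes of the ISG15 and ADP-ribosylation systems, 3 of 6 remaining effectors, 2 of 4 factors and 1 of 3 sensors fell. BaP at 0.1 µM gave 9 falls and 0 rises, with a median of -0.36, against 0.49% and 0.933% of all genes. Its falls were led by Rsad2 (-0.83 (SE 0.14, adjusted p = 0.00147)), Oas1a (-0.74 (SE 0.13, adjusted p = 0.00288)) and Eif2ak2 (-0.66 (SE 0.13, adjusted p = 0.00544)), the kinase that stops translation on double-stranded RNA. For 0.1 µM BaP the count was 22 with the replicate block, 19 under the shared fit and 4 without the second DMSO array.

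AAF at 10 µM for 120 h lowered 4 genes and raised 0, with a median of -0.34, against 0.372% and 0.174% of all genes. The 4 were Rsad2 (-1.04 (SE 0.14, adjusted p = 0.000451)), Oas1a (-0.73 (SE 0.13, adjusted p = 0.0106)), Rtp4 (-0.42 (SE 0.1, adjusted p = 0.0478)) and Usp18 (-0.41 (SE 0.091, adjusted p = 0.0341)). With the replicate block 15 were called, and the count was 1 without the first or the second AAF array or the third DMSO array and 2 without the second DMSO array. DAT at 0.2 µM gave 0 rises and 0 falls, where 0.0% and 0.0% of all genes were called. By limma 5 of the 33 had an unadjusted p under 0.05, and the count was 0 under every alternative setting. For 10 µM AAF, the set 2 dose used at both times, the 120 h response minus the 24 h response was called higher for 0 and lower for 0 genes, where 0.0% and 0.0% of all genes were called, with 13 at an unadjusted p under 0.05.

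BaP and MCA, both polycyclic aromatic hydrocarbons, were given at the same dose and time only at 0.1 µM and 120 h in set 2, so 1 pair was compared. MCA minus BaP was called lower for 3 of 33 genes and higher for 0, against 0.0474% and 0.0316% of all genes. Rsad2 differed by -1.07 (95% interval -1.36 to -0.78, adjusted p = 0.000261), Ifit1 by -0.81 (95% interval -1.15 to -0.48) and Usp18 by -0.46 (95% interval -0.64 to -0.27). Rsad2 measured 9.16, 9.31 and 9.44 on the BaP arrays, above each of the MCA arrays. Gbp2 showed no difference past the test, with an interval of -0.15 to 0.13, and the interval of Mx2 was wide, -1.44 to 0.29. The count was 8 with the replicate block and 1 without any 1 of the 6 arrays, and the other doses of the 2 compounds differ and were not compared.

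**Figure D4:**
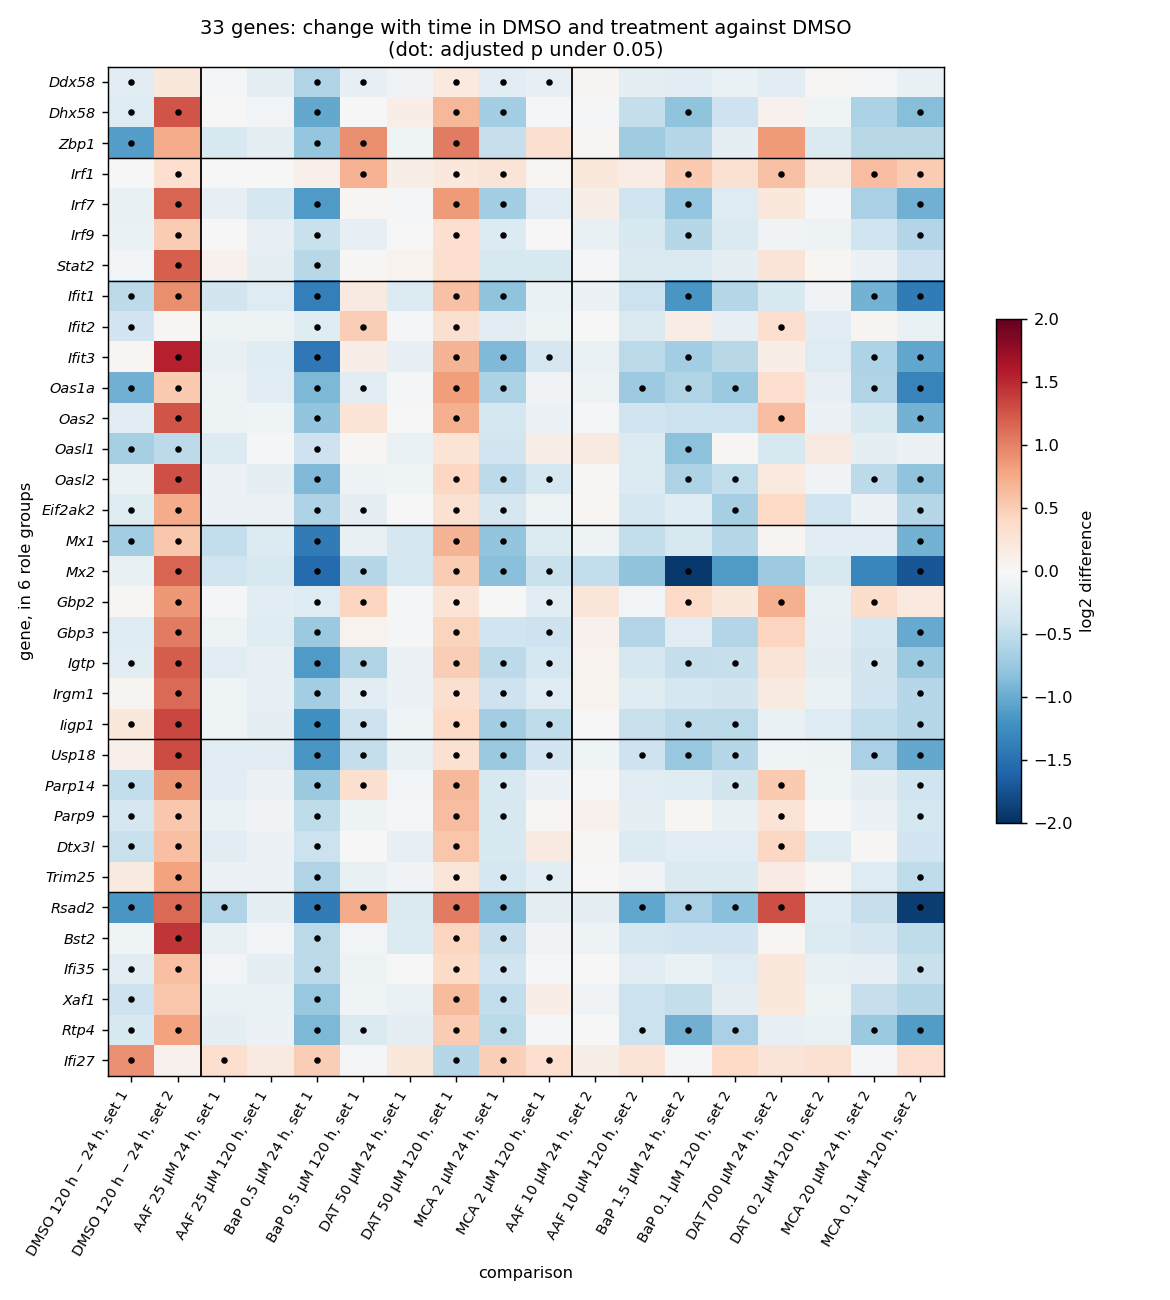
Log2 difference of the 33 tested genes (rows, in 6 role groups from sensors at the top to membrane and other effectors) in the 2 DMSO time changes and the 16 comparisons with DMSO (columns), from blue (lower) through white to red (higher), with a dot where the adjusted p was under 0.05. The 0.5 µM BaP 24 h column is blue for 31 called genes and the 50 µM DAT 120 h column is red for 30, while the Irf1 row has 7 called rises and no called fall among the 16 treatment columns.

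The genes did not all follow the same pattern. Over the 16 treatment comparisons Usp18 fell in 9 and rose in 1, and Oas1a, Igtp and Rtp4 fell in 8 and rose in 1 each. Rsad2 fell in 7 and rose in 3. Irf1 fell in 0 and rose in 7, with the largest rise after 0.5 µM BaP at 120 h (0.70). Gbp2 fell in 2 and rose in 5, and Ifi27 fell in 1 and rose in 4. Correlated over the 10 group means of a set with the mean of the other members, Dhx58 (0.96 in set 1 and 0.99 in set 2), Irf7 (0.97 and 0.99) and Oasl2 (0.98 and 0.98) followed it closely. Irf1 (-0.0039 and -0.015), Oasl1 (0.40 and -0.18), Ifit2 (0.49 and -0.48) and Ifi27 (-0.48 and 0.61) did not. These correlations rest on 10 groups that share their controls and scaling and are given as descriptions.

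The group order was summarised by where each gene had its highest and lowest group mean. In set 1 the lowest group was 0.5 µM BaP at 24 h for 26 of 33 genes, and the highest was 50 µM DAT at 120 h for 23. In set 2 the lowest was 1.5 µM BaP at 24 h for 23 genes, and the highest was DMSO at 120 h for 23. The median range from lowest to highest group mean was 1.08 in set 1 and 1.38 in set 2. The mean over the 33 genes on the 3 arrays of 10 µM AAF, the set 2 dose shared by both times, was 10.30, 10.16 and 10.26 at 24 h and 10.70, 10.62 and 10.83 at 120 h. For 25 µM AAF in set 1 it was 9.67, 9.63 and 9.72 and 9.38, 9.39 and 9.49. The AAF arrays thus lay higher at 120 h in set 2 and lower at 120 h in set 1, without overlap, as the DMSO arrays did. In set 2 the neighbours AAF at 24 h and DMSO at 24 h, with means of 10.24 and 10.25, overlapped, as did AAF and 0.1 µM BaP at 120 h, with means of 10.72 and 10.72.

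The 7 genes followed in detail spanned these group means (± SD, n = 3). In set 1 Ifit1 ran from 9.99 ± 0.058 (0.5 µM BaP 24 h) to 11.42 ± 0.13 (50 µM DAT 120 h), and in set 2 from 9.68 ± 0.16 (1.5 µM BaP 24 h) to 11.77 ± 0.23 (DMSO 120 h). Rsad2 ran from 8.28 ± 0.046 (0.5 µM BaP 24 h) to 9.69 ± 0.25 (DMSO 24 h) in set 1 and from 8.23 ± 0.18 (0.1 µM MCA 120 h) to 10.29 ± 0.14 (700 µM DAT 24 h) in set 2. In set 1 both were lowest after 0.5 µM BaP for 24 h, and their highest groups differed. Irf7 ran from 7.68 ± 0.14 (0.5 µM BaP 24 h) to 9.53 ± 0.072 (50 µM DAT 120 h) in set 1 and from 8.17 ± 0.22 (1.5 µM BaP 24 h) to 10.11 ± 0.058 (DMSO 120 h) in set 2. Ifit3 ran from 9.63 ± 0.095 (0.5 µM BaP 24 h) to 11.78 ± 0.036 (50 µM DAT 120 h) in set 1 and from 10.15 ± 0.23 (1.5 µM BaP 24 h) to 12.41 ± 0.14 (DMSO 120 h) in set 2, and Oasl2 from 10.24 ± 0.084 (0.5 µM BaP 24 h) to 11.40 ± 0.032 (50 µM DAT 120 h) and from 10.51 ± 0.20 (1.5 µM BaP 24 h) to 12.42 ± 0.19 (DMSO 120 h). Irf7, Ifit3 and Oasl2 shared their lowest and their highest group with Ifit1 in each set. Gbp2 ran from 10.39 ± 0.058 (0.5 µM BaP 24 h) to 11.09 ± 0.069 (0.5 µM BaP 120 h) in set 1 and from 11.57 ± 0.044 (DMSO 24 h) to 12.63 ± 0.076 (0.1 µM BaP 120 h) in set 2. Irf1 ran from 9.96 ± 0.12 (DMSO 24 h) to 10.66 ± 0.012 (0.5 µM BaP 120 h) and from 11.18 ± 0.12 (DMSO 24 h) to 12.02 ± 0.23 (0.1 µM MCA 120 h), with the DMSO group at 24 h lowest in both sets.

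Among the ligands, Ifnb1, Ifna1, Ifna2, Ifna4 and Ifna5 were too dim to test, with set means of 6.1 to 39.6 in intensity. Ifng was about as dim, at mean intensities of 17.5 in set 1 and 39.9 in set 2, below the lowest array medians of 41.2 and 56.3. It was tested because it lay above the array median on at least 3 arrays, so its calls are uncertain. Ifng fell with time in both sets (-0.66 and -0.89). Among the treatments it rose after 50 µM DAT (0.63) and 2 µM MCA (0.77) for 120 h, fell after 700 µM DAT for 24 h (-1.40) and was not called in the other 13. The 7 receptor and kinase genes were all tested. With time 4 rose and 1 fell in set 1, and 2 rose and 1 fell in set 2, with Jak2 at 0.75 and 0.65, and the set difference was called for 0 of 7 by limma. Of all genes tested 29.3% rose and 28.5% fell in set 1, and 17.8% rose and 22.4% fell in set 2. Among 7 further Stat and Irf factors and brakes that were tested, Socs3, which inhibits the kinases, rose with time by 1.55 in set 1 and 1.36 in set 2, with no called set difference for any of the 7. After 0.5 µM BaP for 24 h 1 receptor gene rose, Ifnar2 (0.27), and 0 of the 7 factors and brakes were called.

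Of 9 nucleic acid sensing genes 7 were tested. With time 2 rose and 4 fell in set 1, against 29.3% and 28.5% of all genes. In set 2 3 rose and 1 fell, against 17.8% and 22.4%. The set difference was called positive for 1 and negative for 0, against 1.61% and 1.94%. After 0.5 µM BaP for 24 h 0 rose and 1 fell, against 4.51% and 4.88%. After 50 µM DAT for 120 h 3 rose and 0 fell, against 11.7% and 12.0%. Of the 7, Tlr3, an endosomal receptor of double-stranded RNA, moved as most of the members did. It fell with time in set 1 (-0.42 (SE 0.08, adjusted p = 6.54e-05)), rose in set 2 (0.74 (SE 0.15, adjusted p = 0.000205)), fell after 0.5 µM BaP for 24 h (-0.78 (SE 0.08, adjusted p = 1.01e-07)) and rose after 50 µM DAT for 120 h (0.57 (SE 0.08, adjusted p = 4.69e-06)). Cgas, the sensor of cytosolic DNA, fell with time in both sets (-1.79 and -1.67). Tlr3 was also the gene most like the members by the lower of its 2 correlations: its group means correlated with the members' mean at 0.97 over the 10 groups of set 1 and 0.95 over those of set 2. The next were Rnf213 (lower value 0.93), Ccl5 (0.90), Oas1b (0.90), Tor1aip2 (0.89), Tdrd7 (0.88), Irgm2 (0.88), Trim30a (0.88), Gm4951 (0.88) and Lgals3bp (0.85), which is a description of 10 groups a set.

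Of 27 other interferon-inducible genes 25 were tested. With time 14 fell and 4 rose in set 1, 15 rose and 3 fell in set 2, and the set difference was called positive for 19 and negative for 0, with a median of 0.77. Of all genes tested 28.5% fell and 29.3% rose in set 1, and 17.8% rose and 22.4% fell in set 2. The set difference was called positive for 1.61% of all genes and negative for 1.94%. Cmpk2, a nucleotide kinase next in function to viperin, differed by 1.50 (SE 0.29, adjusted p = 0.0005) and the chemokine Cxcl10 by 1.40 (SE 0.30, adjusted p = 0.00286). After 0.5 µM BaP for 24 h 21 of the 25 fell and 1 rose, with Cmpk2 at -1.10 (SE 0.14, adjusted p = 4.46e-06), the chemokine Ccl5 at -1.08 (SE 0.11, adjusted p = 1.23e-07) and the GTPase Irgm2 at -1.04 (SE 0.087, adjusted p = 1.80e-09). After 50 µM DAT for 120 h 22 rose and 0 fell, led by Ifi27l2a (1.05 (SE 0.087, adjusted p = 9.34e-10)) and Cmpk2 (0.78 (SE 0.14, adjusted p = 0.000166)). After 0.1 µM MCA for 120 h in set 2 10 fell and 1 rose, with Ifi27l2a at -1.47 (SE 0.14, adjusted p = 1.41e-07) and Ccl5 at -1.32 (SE 0.12, adjusted p = 3.82e-08). Ccl5 also fell after 2 µM MCA (-0.86), 1.5 µM BaP (-1.41) and 20 µM MCA (-1.19) at 24 h, and after 0.1 µM BaP (-0.73) and 10 µM AAF (-0.55) at 120 h. Beside the counts above, 4.88% of all genes fell and 4.51% rose after 0.5 µM BaP at 24 h. After 50 µM DAT at 120 h 11.7% rose and 12.0% fell, and after 0.1 µM MCA 1.16% fell and 1.31% rose.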

How the data were processed

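Total RNA was measured on 60 single-colour Affymetrix arrays with 45101 probe sets. The deposited values are intensity values per probe set, made by the authors with GCOS, per the submitters' processing notes; the version, scaling target and genome build are not given in the sources used here. Each set has its own scale (trimmed mean 152.9 to 187.6 in set 1 and 500.0 in set 2), which bars comparison of levels across sets.

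Probe sets were named through the platform annotation (34958 with 1 symbol, 932 with several, 9211 unlisted), and the probe set with the highest mean stood for a gene. Intensities were taken as log2(intensity + 16), quantile-normalized within each set of 30 arrays, kept where above the array median on at least 3 arrays (12650 of 18194 genes), and fitted with limma 3.58.1 (R 4.3.3, lmFit and eBayes with trend), separately for each set because the sets differ in spread. The difference of the time changes between sets used all 60 arrays with a weight for each set (1.90 and 0.53). P-values are two-sided and adjusted by Benjamini-Hochberg over all genes tested, in 25 comparisons, and only 3 arrays a group limit the precision. The fits were also run on simulated data, with noise drawn separately for each array. Such a run cannot show how shared deviations of same-numbered arrays, described below, affect the calls.

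The members and lists were chosen with earlier results of these data known. A listed gene of the pathway is not reported here. The text names, by rule, Ifit1, Ifit3, Rsad2, Irf7, Oasl2, Irf1 and Gbp2 throughout, up to 3 of the largest called rises and falls in a comparison, at most 4 genes of a related list, and 10 genes of like pattern. Other genes named (such as Ifi27, Tlr3 and Ccl5, followed across comparisons) were chosen after their values were seen.

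Arrays with the same replicate number deviated together from their group means in 14 of the 19 comparisons checked, with all 3 correlations over 0.1. The number in the labels was thus taken to pair arrays there, from the data only. In 5 they did not: DMSO over time in set 1, 50 µM DAT at 120 h, 2 µM MCA at 24 h, 0.1 µM BaP and 0.2 µM DAT at 120 h. The main fits did not use the pairing, so their counts and p-values ignore it. Counts with the number as a block are given as an alternative. Alternatives were a shared fit of 60 arrays, the deposited values without quantile normalization, a pseudocount of 1, no filter, the mean of all probe sets of a gene, the replicate number as a block, and leaving out each array.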

Additional observations from a re-analysis of the deposited data

Results flagged for a closer look

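The DMSO time changes of the 2 sets differed by the test of the difference itself for 30 of the 33 genes. That difference, set 2 minus set 1, was 2.29 for Rsad2, 1.52 for Ifit3, 1.46 for Ifit1, 1.41 for Oasl2, 1.31 for Irf7, 0.84 for Gbp2 and -0.83 for Ifi27. Both sets used the same vehicle, line and times as far as the labels say, and what else differed between the sets was not tested. The opposite time change was known beforehand from the same DMSO arrays, so this test is not independent support for it.

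The response to 0.5 µM BaP in set 1 differed between 120 h and 24 h for 29 of the 33 genes. The 120 h response minus the 24 h response was 2.15 for Rsad2, 1.56 for Ifit3, 1.55 for Ifit1, 1.17 for Irf7, 0.77 for Oasl2, 0.68 for Gbp2, 0.59 for Irf1 and -0.51 for Ifi27. The response to 50 µM DAT differed for 27 genes, by 1.32 for Rsad2, 0.90 for Irf7, 0.86 for Ifit1, 0.83 for Ifit3, 0.50 for Oasl2 and -0.79 for Ifi27. The response to 2 µM MCA differed for 16 genes. These 3 tests share the DMSO arrays of set 1.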

How the results depend on the processing

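Of 338 called values of a gene in a comparison, 220 passed the test under every alternative run, and none turned its direction. The rest lost the call in 54 cases under the shared fit, 48 without quantile normalization, 24 with the mean of all probe sets, 16 without the filter, 3 with a pseudocount of 1 and 0 with the replicate block, and in 298 of 2640 values when 1 array was left out. Counts of called genes that moved by over 1.5 times were these, and the cause was not tested. Under the shared fit they were 0 for 25 µM AAF at 24 h, 9 for 10 µM AAF at 120 h, 19 for 0.1 µM BaP, 15 for 700 µM DAT, 16 for 20 µM MCA, 16 and 10 for the time difference of the 50 µM DAT and 2 µM MCA responses, and 6 for MCA minus BaP. Without quantile normalization they were 0 for 25 µM AAF at 24 h, 2 for 10 µM AAF at 120 h and 1 for MCA minus BaP, and the median of all genes in the set 2 time change moved to 0.11. Without the filter they were 1 for 25 µM AAF at 24 h and 1 for MCA minus BaP, and with the mean of all probe sets 0 for 25 µM AAF at 24 h. With the replicate block they were 4 for 25 µM AAF at 24 h, 15 for 10 µM AAF at 120 h, 22 for 0.1 µM BaP, 17 for 700 µM DAT, 17 for 20 µM MCA, 1 for the time difference of the 10 µM AAF response and 8 for MCA minus BaP; the block moved no other count by as much, with 21 and 31 for the set 1 and set 2 time changes and 32 for their difference.

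Leaving out each array in turn gave 17 to 20 called genes for the set 1 time change, 25 to 28 for that of set 2 and 27 to 31 for the difference. In set 1 it gave 0 to 3, 28 to 32, 0 to 1 and 19 to 27 at 24 h (for AAF, BaP, DAT, MCA in that order) and 0 to 0, 10 to 15, 26 to 31 and 8 to 14 at 120 h. In set 2 it gave 0 to 0, 7 to 15, 5 to 7 and 5 to 9 at 24 h and 1 to 4, 4 to 10, 0 to 0 and 16 to 20 at 120 h. For the time difference of a response it gave 0 to 0, 29 to 31, 21 to 26 and 11 to 23 in set 1 and 0 to 0 for 10 µM AAF, and for MCA minus BaP 1 to 1. With 3 arrays a group and dim probe sets such as those of Oasl1, above the array median on 39 of 60 arrays, a difference that did not pass the test may be too small for this design to show.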

Other observations

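Neighbouring genes did not always move together. Ifit2 and Ifit3 follow each other on the chromosome, yet with time in set 2 Ifit3 rose by 1.56 while Ifit2 stood at 0.02 (adjusted p = 0.864), and after 0.1 µM MCA for 120 h Ifit3 fell by 1.04 while Ifit2 stood at -0.13 (adjusted p = 0.656). Ifit2 rose after 0.5 µM BaP for 120 h (0.50 (SE 0.066, adjusted p = 1.20e-06)) and after 700 µM DAT (0.34 (SE 0.082, adjusted p = 0.00889)), and Ifit3 did not pass the test in either (0.14 and 0.13). The difference between these 2 genes was not tested.

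The neighbours Parp14, Parp9 and Dtx3l, of which Dtx3l encodes a ubiquitin ligase that partners Parp9, were called in the same direction in several comparisons. All 3 fell with time in set 1 (-0.50, -0.33 and -0.45) and rose in set 2 (0.88, 0.54 and 0.60). All 3 fell after 0.5 µM BaP for 24 h (-0.74, -0.51 and -0.43) and rose after 50 µM DAT for 120 h (0.66, 0.62 and 0.55) and after 700 µM DAT for 24 h (0.52, 0.28 and 0.41). In 4 other treatment comparisons they were not called together: Parp14 and Parp9 fell without Dtx3l after 2 µM MCA for 24 h and 0.1 µM MCA, and Parp14 alone rose after 0.5 µM BaP for 120 h (0.32) and fell after 0.1 µM BaP (-0.36). These genes were chosen after their values were seen, and the difference between them was not tested.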
